A study of Rattus norvegicus with 3 samples.

Results

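The genes of sarcoplasmic reticulum calcium handling were followed in neonatal rat ventricular myocytes exposed to dexamethasone (Dex), a synthetic ligand of the glucocorticoid receptor (GR). The set has 10 members, chosen by name from the 17450 gene rows of the authors' deposited table: Ryr2, Cacna1c, Atp2a2, Pln, Sln, Slc8a1, Casq2, Hrc, Trdn and Camk2d. Each member matched 1 row. The cells came from ventricles of 1-day-old Sprague Dawley pups, were enriched for cardiomyocytes by Percoll gradient and preplating, and were moved to serum-free medium after plating. The groups were ethanol vehicle, whose duration the labels do not give, 100 nM Dex for 1 h and 100 nM Dex for 24 h, so an effect of Dex cannot be told apart from one of time in culture. Each group is 1 sample whose title speaks of 2 libraries, and 1 FPKM value (fragments per kilobase of transcript, scaled to library size) stands for it.

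In each heartbeat, calcium enters the myocyte through L-type channels of the surface membrane and triggers release of a larger store from the sarcoplasmic reticulum through the ryanodine receptor. The pump SERCA2 then returns calcium to the store under the brake of phospholamban and sarcolipin, and the sodium-calcium exchanger extrudes the rest. Calsequestrin, the histidine-rich calcium-binding protein and triadin buffer the store or tie it to the release channel, and calcium/calmodulin-dependent kinase tunes both release and uptake by phosphorylation. Neonatal rodent myocytes have an immature reticulum and depend more on calcium crossing the surface membrane than adult cells do.

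Hrc, which encodes the histidine-rich calcium-binding protein of the reticulum lumen, was the member that fell. It had 18.2 FPKM in ethanol, 13.6 at 1 h and 3.72 at 24 h of Dex. The 24 h value was the lowest of the 3, and the 1 h value lay nearer to ethanol than to 24 h. At 24 h over ethanol the log2 fold was −2.29 ± 0.36, a 4.89-fold lower level (SE implied by the authors' test statistic; q = 0.00238 in the authors' deposited table). At 24 h over 1 h it was −1.87 ± 0.36, with the same q in the authors' deposited table. The difference at 1 h over ethanol, −0.42 ± 0.33, was not called (q = 0.621 in the authors' deposited table). Among the 10694 tested genes with at least 1 FPKM in a group, the 24 h fold of Hrc was the 25th lowest. Its rank by level among all rows was 9005 at 24 h, against 4715 in ethanol. In bulk samples fewer cells of a type and less RNA per cell cannot be told apart from 1 gene alone. Beside Hrc, 5 of 6 cardiomyocyte markers were not called at 24 h, with log2 folds over ethanol from −0.17 to 0.11, and Myl2 was called lower at −1.84.

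The row of Hrc (XLOC_000413) spans 3.6 kb at chr1:102388310-102391914 of rn5, and no other row overlaps it. The upstream sequence of Hrc is shown because it belongs to the member that fell. It holds the 250 bases before the annotated start, from RefSeq on build GRCr8 (chr1:104949500-104949749, plus strand). Whether that start is the one behind the rn5 row was not compared. No base is capitalised, since the sequence holds no CpG and none of the 5 letter patterns searched, which are spelled out after the GR regions.
Hrc: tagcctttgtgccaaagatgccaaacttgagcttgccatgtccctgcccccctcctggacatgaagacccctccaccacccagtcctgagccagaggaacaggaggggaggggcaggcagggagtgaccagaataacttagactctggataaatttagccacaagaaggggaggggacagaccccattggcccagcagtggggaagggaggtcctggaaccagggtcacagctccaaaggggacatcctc

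**Figure D1:**
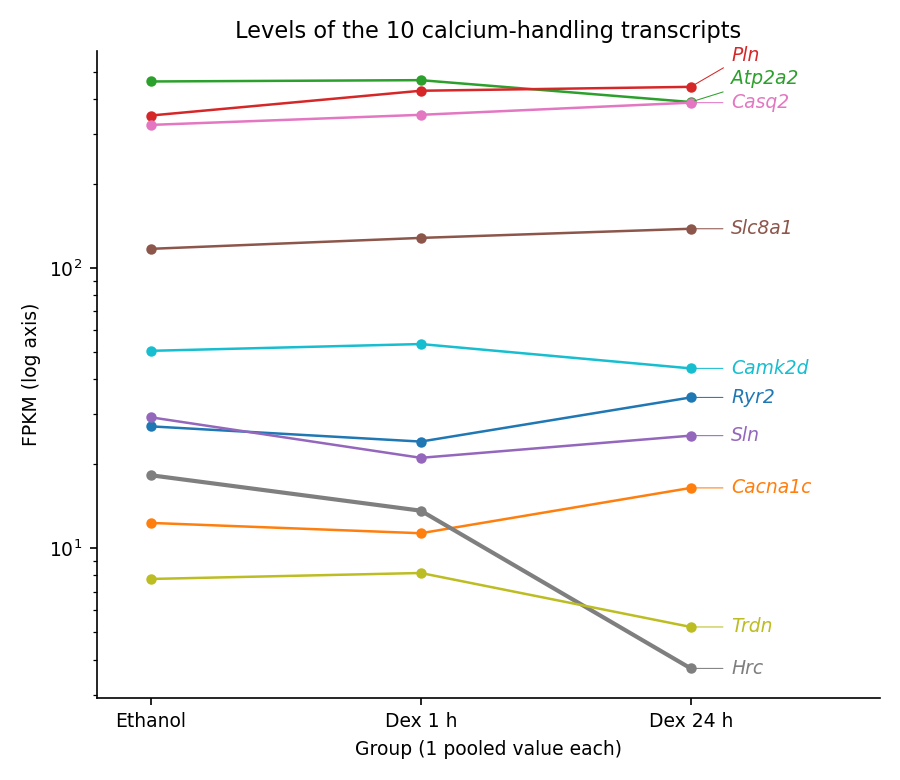
FPKM (log axis) of the 10 members in ethanol, Dex 1 h and Dex 24 h, with 1 pooled value per group and gene and lines joining the values of a gene. Hrc falls to 3.72 FPKM at 24 h and becomes the lowest member, while every other member stays within a 1.56-fold range over the 3 groups.

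Across the set, 1 of 10 members was called at 24 h over ethanol, against a background of 6.22% of 11673 tested genes in either direction and 2.04% called lower. At 1 h over ethanol 0 of 10 were called (background 0.863%), and the authors' deposited table gives 0 members a p below 0.05 before adjustment. At 24 h over 1 h, 1 of 10 was called (background 4.92%). With 10 genes, a count of 1 is near these background shares, and in both comparisons it was Hrc. The median log2 fold of the members was 0.04 at 1 h and 0.01 at 24 h over ethanol, beside −0.00 at both times for all genes with at least 1 FPKM. At 24 h, 5 members lay above and 5 below ethanol. The 1 h and 24 h comparisons use the same ethanol sample. A gene is said to be called, to rise or to fall where the authors mark it as significant (q no higher than 0.05). No test was run here because each group has 1 value.

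The smallest absolute log2 fold called at 24 h over ethanol among genes with at least 10 FPKM in every group was 0.67. Members other than Hrc ranged from −0.57 to 0.42, below that size. Trdn, at −0.57, had 7.76 FPKM in ethanol and 5.23 at 24 h, so it is not among the genes behind that size. The 95% intervals of the members other than Hrc reach as low as 0.427 times the ethanol level, for Trdn, and as high as 2.06 times, for Cacna1c. Taken from the authors' statistic, these intervals are wider than the authors' p-values imply. A change of 1.5-fold in 1 direction is inside the interval of each of these 9 genes at 24 h.

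**Figure D2:**
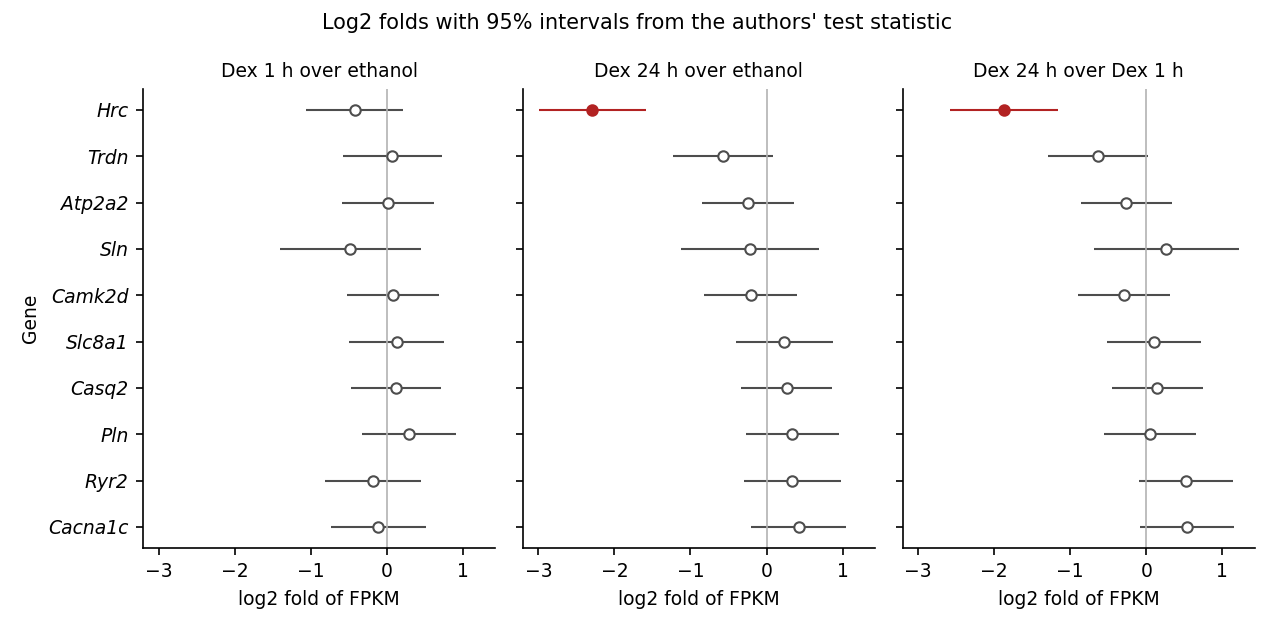
Log2 fold of FPKM for each member in Dex 1 h over ethanol, Dex 24 h over ethanol and Dex 24 h over Dex 1 h, with bars of 95% intervals from the authors' test statistic; filled red points were called by the authors. Hrc, at −2.29 and −1.87 in the comparisons with 24 h on top, is the filled point in both, and the other intervals include 0. The intervals of members not called are wider than the authors' p-values imply. Trdn at 24 h over ethanol, and Trdn, Ryr2 and Cacna1c at 24 h over 1 h, have an unadjusted p below 0.05 in the authors' deposited table.

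The release channel and its trigger lay higher at 24 h without a call. Ryr2, the cardiac ryanodine receptor through which the store empties, had 27.2 FPKM in ethanol, 24.0 at 1 h and 34.5 at 24 h. Its log2 fold was 0.34 ± 0.33 at 24 h over ethanol and 0.52 ± 0.32 at 24 h over 1 h (q = 0.85 and 0.248 in the authors' deposited table). Cacna1c, the pore subunit of the L-type calcium channel, had 12.3 FPKM in ethanol, 11.3 at 1 h and 16.4 at 24 h. Its fold was 0.42 ± 0.32 at 24 h over ethanol and 0.53 ± 0.31 at 24 h over 1 h (q = 0.549 and 0.259 in the authors' deposited table). Before adjustment, the authors' p at 24 h over 1 h was 0.0168 for Ryr2 and 0.0179 for Cacna1c. For both genes the 1 h value was the lowest and the 24 h value the highest. Ryr2 stood at 2.22 times the FPKM of Cacna1c in ethanol, 2.12 times at 1 h and 2.10 times at 24 h.

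Trdn, or triadin, which anchors calsequestrin to the ryanodine receptor, was the member with the next lowest 24 h fold after Hrc. It had 7.76 FPKM in ethanol, 8.15 at 1 h and 5.23 at 24 h. The fold was −0.57 ± 0.34 at 24 h over ethanol and −0.64 ± 0.34 at 24 h over 1 h. Neither was called, with q = 0.237 and 0.132 and unadjusted p = 0.0157 and 0.0071 in the authors' deposited table. Casq2, cardiac calsequestrin, the main calcium buffer of the store, had 324 FPKM in ethanol, 352 at 1 h and 389 at 24 h. Its 24 h fold over ethanol was 0.26 ± 0.30 (p = 0.221 in the authors' deposited table). Among these transcripts of the store, Casq2 was highest at 24 h, where Hrc and Trdn were lowest.

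Ratios of the length-scaled FPKM set these store transcripts against each other. Casq2 stood at 17.8 times the FPKM of Hrc in ethanol, 26 times at 1 h and 105 times at 24 h. The log2 change of this ratio at 24 h over ethanol was 2.55 ± 0.47, where the SE adds both genes' errors as if independent. Trdn stood at 1.41 times Hrc at 24 h against 0.427 times in ethanol, so the 2 values changed order. No spread of a level is at hand to say whether the levels did. For Casq2 over Trdn the ratio was 74.4 at 24 h and 41.8 in ethanol, a log2 change of 0.83 ± 0.45.

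The pump and its inhibitor phospholamban were, with Casq2, the abundant transcripts of the set. Atp2a2, which encodes the SERCA2 pump, had 463 FPKM in ethanol, 468 at 1 h and 391 at 24 h, ranking 231st of all rows in ethanol. Its fold was −0.24 ± 0.31 at 24 h over ethanol (p = 0.252 in the authors' deposited table). Pln, phospholamban, which inhibits the pump until it is phosphorylated, had 350 FPKM in ethanol, 429 at 1 h and 443 at 24 h. The folds of Pln over ethanol were 0.29 ± 0.32 at 1 h and 0.34 ± 0.31 at 24 h (p = 0.182 and 0.121 in the authors' deposited table). Pump and inhibitor lay on opposite sides of ethanol at 24 h. The ratio of Atp2a2 to Pln was 1.32 in ethanol, 1.09 at 1 h and 0.883 at 24 h. The log2 change of this ratio at 24 h over ethanol, −0.58 ± 0.44, has a 95% interval that includes 0.

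The row of Pln covers 107 kb (chr20:36333902-36441228) and shares this locus with the row LOC100365935, at 2.38 FPKM at 24 h and 2.07 in ethanol. The value of Pln is uncertain to the extent that reads could be split between them. Sln, sarcolipin, another inhibitor of the pump found mainly in atrial muscle, had 29.3 FPKM in ethanol, 21.0 at 1 h and 25.2 at 24 h. Sln carried the widest errors of the set, with folds of −0.48 ± 0.47 at 1 h and −0.22 ± 0.46 at 24 h over ethanol (p = 0.153 and 0.504 in the authors' deposited table). Pln stood at 17.5 times the FPKM of Sln at 24 h and 11.9 times in ethanol.

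Neither the exchanger nor the kinase was called in any comparison. Slc8a1, the sodium-calcium exchanger NCX1, had 117 FPKM in ethanol, 128 at 1 h and 138 at 24 h, with a fold of 0.23 ± 0.32 at 24 h over ethanol (p = 0.31 in the authors' deposited table). Atp2a2 stood at 2.84 times Slc8a1 at 24 h and 3.96 times in ethanol. Camk2d, the main cardiac isoform of calcium/calmodulin-dependent kinase II, had 50.6 FPKM in ethanol, 53.5 at 1 h and 43.8 at 24 h. Its fold was −0.21 ± 0.31 at 24 h over ethanol and −0.29 ± 0.31 at 24 h over 1 h (p = 0.336 and 0.179 in the authors' deposited table).

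By level, the order in ethanol was Atp2a2, Pln, Casq2, Slc8a1, Camk2d, Sln, Ryr2, Hrc, Cacna1c and Trdn, over a range of 463 to 7.76 FPKM. At 24 h Pln stood first, Atp2a2 and Casq2 next at a ratio of 1.01, and Hrc last. Neighbours such as Pln and Casq2 in ethanol (1.08 times) or Sln and Ryr2 (1.08 times) cannot be ordered, since no spread of a level is at hand. Slc8a1 and Camk2d kept the fourth and the fifth place in all 3 groups.

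**Figure D3:**
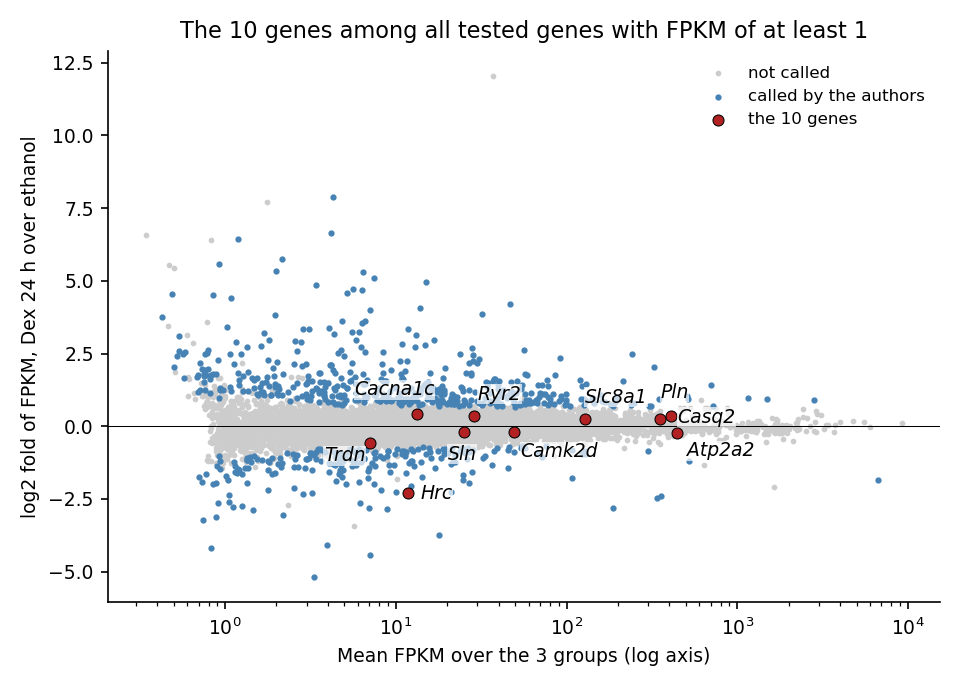
Log2 fold of FPKM in Dex 24 h over ethanol against the mean FPKM over the 3 groups (log axis) for 10694 tested genes with at least 1 FPKM in a group; blue points were called by the authors and red points are the 10 members. Hrc, at −2.29, lies among the called genes and the other 9 lie within the grey band.

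Related genes of the same machinery were taken from 6 lists, with 52 of 57 genes matched to a row and Slc8b1 matched through its older symbol Slc24a6. At 24 h over ethanol 2 rose, 1 fell and 49 were not called, or 5.77% called beside the background of 6.22%, and 7 had an unadjusted p below 0.05, beside 14.3% of all tested genes. The median log2 fold of the 52 was 0.05 at 24 h and −0.05 at 1 h, when 0 of them were called and 1 had an unadjusted p below 0.05. In the list of pump partners, Ppp1cb rose and 8 genes were not called. Ppp1cb, a catalytic subunit of protein phosphatase 1, the enzyme that dephosphorylates phospholamban, had 98.7 FPKM in ethanol, 140 at 1 h and 191 at 24 h (24 h fold over ethanol 0.95 ± 0.32, q = 0.00238 in the authors' deposited table). Its values lay above ethanol at both times. Its fold at 1 h over ethanol, 0.51 ± 0.32, had p = 0.0253 and q = 0.329 in the authors' deposited table.

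Orai1 rose in the list of other release channels and store refill, and the other 5 of its 6 genes were not called. Orai1, the plasma membrane channel of store-operated calcium entry, had 25.9 FPKM in ethanol, 26.4 at 1 h and 44.7 at 24 h (24 h fold over ethanol 0.79 ± 0.34, q = 0.0381 in the authors' deposited table). The 1 h value lay beside ethanol and the 24 h value above both. Among 12 kinases, phosphatases and phosphodiesterases 1 fell and 11 were not called. Akap6, a scaffold that holds protein kinase A and phosphodiesterase near the nuclear envelope and the ryanodine receptor, had 15.6 FPKM in ethanol, 14.8 at 1 h and 6.77 at 24 h. Its fold was −1.20 ± 0.32 at 24 h over ethanol and −1.13 ± 0.32 at 24 h over 1 h (q = 0.00238 for both in the authors' deposited table).

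In the remaining lists no gene was called against ethanol. Among 12 genes of the release unit, Fkbp1a, an immunophilin that can bind ryanodine receptors, had 434 FPKM at 24 h and 303 in ethanol (24 h fold over ethanol 0.52 ± 0.30, p = 0.0144 in the authors' deposited table). In that list 3 genes had an unadjusted p below 0.05 at 24 h over ethanol, not all in the same direction. Of all tested genes 14.3% had such a p. Casq1, the skeletal calsequestrin, was called lower at 24 h over 1 h, at 41.0 against 70.5 FPKM (−0.78 ± 0.32, q = 0.023 in the authors' deposited table). It had 60.1 FPKM in ethanol, and its 24 h fold over ethanol, −0.55 ± 0.31, was not called (p = 0.0118 in the authors' deposited table). Casq1 is named after its values were seen, because it and Akap6 were the only list genes called at 24 h over 1 h. That is 3.85% of the 52 list genes, beside a background of 4.92%. Of 8 genes of sarcolemmal entry and extrusion, folds at 24 h over ethanol ran from −0.37 to 0.18, with Fxyd1, a regulator of the sodium pump, at 224 FPKM at 24 h and 234 in ethanol and the caveolin Cav3 at 93.2 and 82.2. Of 5 mitochondrial calcium genes, folds ran from −0.19 to 0.07, with Letm1 at 33.7 FPKM at 24 h and 32.0 in ethanol. For both lists 0 genes had an unadjusted p below 0.05 at 24 h over ethanol.

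**Figure D4:**
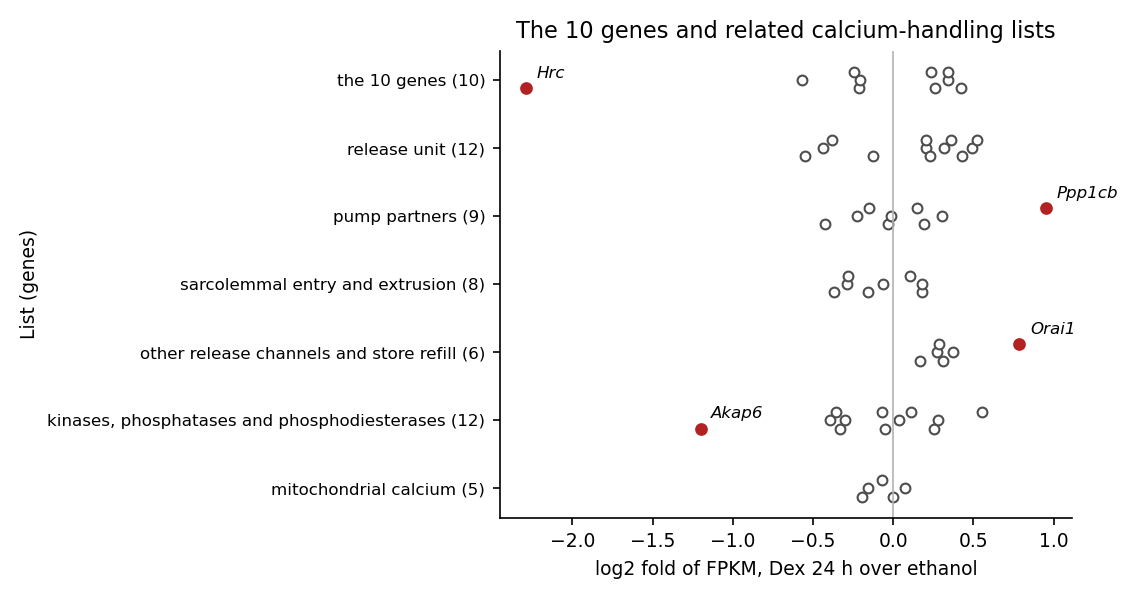
Log2 fold of FPKM in Dex 24 h over ethanol for the 10 members and for 6 lists of related genes, with the number of genes of each list in parentheses and genes spread vertically within a list for legibility. Filled red points, named, were called by the authors, with Hrc at −2.29, Akap6 at −1.20, Orai1 at 0.79 and Ppp1cb at 0.95.

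The cultures held transcripts of other heart cells beside those of cardiomyocytes, and no marker was at 0 in any group. Over 6 of 7 cardiomyocyte markers that had a row, the summed FPKM was 14012 in ethanol, 13454 at 1 h and 7659 at 24 h, with Myl2 called lower and 5 not called at 24 h. The fall of the sum was that of Myl2, which had 8776 FPKM in ethanol, 8731 at 1 h and 2456 at 24 h. The other 5 markers summed to 5203 FPKM at 24 h and 5236 in ethanol, and the median fold of the 6 was −0.02. Troponin T (Tnnt2) stood at 2463 FPKM at 24 h and 2286 in ethanol, and alpha-actinin 2 (Actn2) at 579 and 621. Summed levels at 24 h and in ethanol were 63.7 and 27.8 FPKM for 4 endothelial markers (3 called higher), 42.9 and 25.7 for 4 macrophage markers (2 called higher), 3601 and 4419 for 6 fibroblast markers (Tcf21 called higher), and 9328 and 8500 for 4 smooth muscle markers (0 called). The macrophage markers diverged, with C1qb at 24.3 FPKM at 24 h and 3.44 in ethanol and Cd163 at 2.60 and 0.0542, while Cd68 had 14.7 and 20.2 and Ptprc 1.21 and 1.94, neither called over ethanol. Ptprc was called lower at 24 h over 1 h (−1.03 ± 0.41, q = 0.0151 in the authors' deposited table). In that comparison Myh11 of smooth muscle was called higher (0.95 ± 0.31, q = 0.00238 in the authors' deposited table). The fibroblast markers were split at 24 h over ethanol. Col1a2, Col3a1 and Postn had log2 folds of −0.24, −0.44 and −0.16, and Pdgfra, Tcf21 and Dcn 0.11, 0.87 and 0.57. For 3 atrial markers the summed levels were 10173 FPKM at 24 h and 9533 in ethanol, with 0 called. Most of that sum was Nppa, at 9749 FPKM at 24 h and 8985 in ethanol. Myl7 had 104 and 134 FPKM and Myl4 had 320 and 414, both lower at 24 h. For 3 erythroid markers the summed levels were 90.3 in ethanol, 181 at 1 h and 194 at 24 h, all 3 called higher at both times. The part of these shifts in the fall of Hrc was not tested.

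Regions bound by GR in chromatin immunoprecipitation came with the deposited expression table, from an experiment of another series whose control is named DMSO. A region's height is the authors' highest average tag value, and positions and gene assignments are theirs. Of the 10 members 7 had at least 1 region, against 47.9% of the 10707 rows with at least 1 FPKM in a group. Among such rows at least as long as each of these 7, the share with a region ran from 48.7% (Hrc) to 59.1% (Pln). Whether 7 of 10 exceeds these shares was not tested. These 7 members held 23 of the 8514 regions, 15 inside a gene and 8 upstream. All heights lay between 15.9 and 57.0 and all log2 ratios of Dex over DMSO between 1.88 and 4.72, beside medians of 20.9 and 2.42 over all regions. Ryr2, Trdn and Sln had 0 regions. Ryr2 and Trdn span 420 and 434 kb, and of the 209 rows at least as long as Ryr2, 52.6% had a region.

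Cacna1c held 13 regions over its 620 kb locus, a number reached by 5 rows with at least 1 FPKM, the others being Tns1 with 24, Zmiz1 with 17, Zbtb16 with 15 and Rbm20 with 13. The authors assigned 5 of these regions, from 10.2 kb before to 19.0 kb past the start, to Dcp1b as well. Of the Cacna1c regions 10 lay inside the gene, as far as 588 kb from the start, and 3 upstream. The highest, with a height of 43.7 and a log2 ratio of 3.78, lay at chr4:217184613-217186127, centred 443 bases before the start and above 93.7% of all regions. Next came a region of height 42.3 at chr4:216970774-216971489, 214 kb into the gene. Cacna1c was not called at either time over ethanol, with the values given above.

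Atp2a2 held the highest region of the set, with a height of 57.0 and a log2 ratio of 4.48, at chr12:41425759-41426593, 8475 bases before the start. It stood above 96.9% of all regions. The fold of Atp2a2 over ethanol was 0.02 ± 0.31 at 1 h and −0.24 ± 0.31 at 24 h, neither called. A link between the region and the transcript was not tested. Pln held 3 upstream regions between 4643 and 2205 bases from the start, with heights of 16.3, 32.2 and 37.0, all also assigned by the authors to LOC100365935. By position, from chr20:36386104 to chr20:36388815, they lie inside the 107 kb row of Pln. Upstream here is relative to the authors' start and not to the edge of that row. Slc8a1 held an intragenic region of height 39.5 at 24.7 kb, with the highest log2 ratio of the set, 4.72, and another of height 21.2 at 220 kb. Casq2 held 1 region of height 24.6 at 11.2 kb. Camk2d held 1 of height 20.0 centred 98 bases into the gene (chr2:250251762-250252604) and 1 of height 22.2 at 30.7 kb.

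Hrc, the member that fell, held the lowest region of the set, with a height of 15.9 and a log2 ratio of 2.74 at chr1:102386590-102386828, 1602 bases before the start. Its height stood above 13.1% of all regions. The authors assigned the same region to Trpm4 and Ppfia3. Trpm4, a calcium-activated cation channel, had 7.65 FPKM at 24 h and 7.78 in ethanol. Among rows with at least 1 FPKM, 29.7% of the 222 called lower at 24 h had a region, against 57.5% of the 457 called higher. Outside the set, Akap6 had 3 regions of heights 16.1, 25.4 and 25.6 at 91.1 to 175 kb into the gene, Ppp1cb had 1 of height 16.4 at 55 bases, and Orai1 had none assigned.

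**Figure D5:**
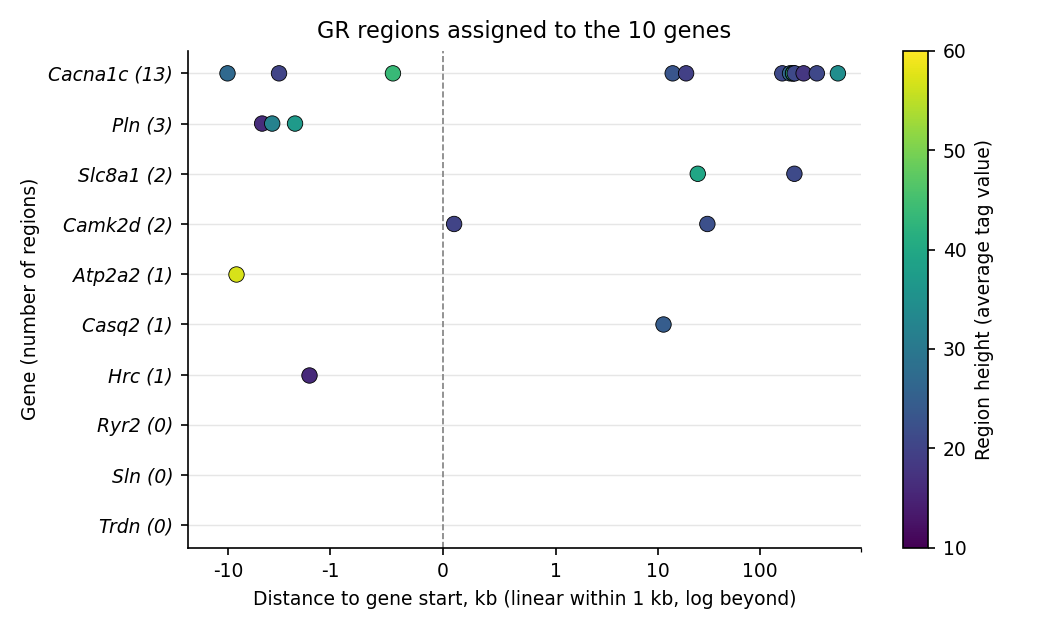
GR regions assigned by the authors to each member, placed by distance to the gene start in kb (linear within 1 kb and logarithmic beyond, upstream to the left) and coloured by height, the average tag value; the number of regions stands beside each gene. Cacna1c has 13 regions, Atp2a2 the highest one (57.0) and Hrc the lowest (15.9), while Ryr2, Sln and Trdn have 0.

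For Cacna1c and Camk2d a region lay over the start itself, and the 250 bases before the RefSeq start of each are shown for that reason. Both are from build GRCr8, at chr4:154051749-154051998 on the minus strand for Cacna1c and chr2:217698301-217698550 on the plus strand for Camk2d, and whether these starts equal those of the rn5 rows was not compared. Capitals mark the palindrome core ACANNNTGT in Cacna1c, which begins 196 bases before the start, and the GC box GGGCGG, on either strand, in Camk2d, where it occurs 3 times.
Cacna1c: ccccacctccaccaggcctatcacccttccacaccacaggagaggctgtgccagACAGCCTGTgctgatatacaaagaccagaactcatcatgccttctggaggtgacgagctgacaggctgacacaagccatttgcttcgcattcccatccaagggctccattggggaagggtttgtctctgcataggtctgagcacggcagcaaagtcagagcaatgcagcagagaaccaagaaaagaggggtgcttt
Camk2d: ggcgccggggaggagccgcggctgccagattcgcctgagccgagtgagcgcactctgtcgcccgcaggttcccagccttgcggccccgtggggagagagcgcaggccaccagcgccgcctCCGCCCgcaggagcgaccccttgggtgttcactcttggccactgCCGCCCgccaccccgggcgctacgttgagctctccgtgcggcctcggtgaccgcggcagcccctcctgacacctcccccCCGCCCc

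Upstream sequence of 9 members was in the RefSeq table, all but Sln. Searched on both strands over these 250 bases, the core of the GR palindrome, ACANNNTGT, was in Cacna1c and Pln, 2 of 9, and in 5.81% of all 33469 promoters of the table. The hexamer AGAACA was in 0 of 9 and in 17.5% of all. The GC box GGGCGG was in Atp2a2, Camk2d and Ryr2 (30.5% of all), the E-box CANNTG in 6 of 9 (65.5%), and the pentamer TGACG in Cacna1c and Slc8a1 (18.2%). Base composition differed widely, with 45 CpG in Atp2a2, 28 in Camk2d and 23 in Ryr2, against 5 or fewer in the other 6, and a median of 5 over all promoters. A match in letters describes the sequence and not binding.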

How the data were processed

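RNA was sequenced in 3 groups, 1 sample each, whose titles speak of 2 libraries. The submitters' processing notes list TopHat, Cufflinks, Cuffdiff and rn5, with no versions or roles. Per the file headers, the authors deposited 1 FPKM per gene and group, and a test statistic (used as a score), p-value and q-value per pair of groups. How libraries were scaled is not stated in these sources, and sequencing depth is unknown. The deposited q-value equals a Benjamini-Hochberg adjustment over all 34896 tests, to within 5.22e-07. No deposited p-value is below 5e-05.

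Log2 folds here are plain ratios of the deposited FPKM. Their SE is the fold's size over the authors' statistic, and intervals span 1.96 SE to either side. The normal quantile of p exceeded that statistic 1.42 times at the median, so an SE taken from p would be smaller there. The intervals called 95% are then wider than the authors' p-values imply. An interval that includes 0 can thus go with an unadjusted p below 0.05, as for Trdn at 24 h over ethanol. A median of folds has no SE. No replicate values were used, so no test was run here, and whether the libraries were separate cultures is not stated.

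The deposited GR region table gives a signal (highest average tag value), a log2 ratio and a distance in bases per region, by the authors. Caller, scaling and build are not stated for it. The distances point to starts within 3 bases of the rn5 locus edges in the 6 members other than Pln. The 6 per-sample ChIP columns were not used. Members and lists were chosen with earlier results of these data known. All 10 members are named, as well as each list gene called over ethanol or, in lists with none, the 2 with the highest mean FPKM, of which some are not reported here. The adjustment was tested on simulated data. Python 3.11.15, pandas 2.3.3 and scipy 1.17.1 were used.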

Additional observations from a re-analysis of the deposited data

Results flagged for a closer look

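Hrc was marked because its effects at the 2 times differed by the authors' own test of 24 h over 1 h, with a log2 fold of −1.87 (q = 0.00238 in the authors' deposited table, 3.72 against 13.6 FPKM). Akap6, the kinase A scaffold, was marked for the same reason, with −1.13 (q = 0.00238 in the authors' deposited table, 6.77 against 14.8 FPKM). Casq1, also called at 24 h over 1 h (q = 0.023 in the authors' deposited table) but at neither time over ethanol, was not marked.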

How the results depend on the processing

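Under 4 other call rules, 0 members were called at 1 h over ethanol and 1, Hrc, at 24 h over ethanol and at 24 h over 1 h. These rules were a stricter q of 0.01, a minimum fold of 1.5, adjustment within each comparison, and a floor of 1 FPKM with adjustment anew. The first 2 can only remove calls, so they could not change a count of 0, and Hrc already met both. The share of all tested genes called under these rules was not computed. Adding 1 or 0.1 to the FPKM, or rescaling the groups to a common median ratio or the same sum, moved none of the 120 member folds by more than 0.27. All kept their sign, but adding a constant to both values cannot change a sign. Hrc at 24 h over ethanol ran from −2.30 to −2.02. The scalings shifted all genes by at most 0.03 in log2, so they could turn only folds smaller than that. At the stricter q of 0.01, 1 list gene in place of 2 was called at 24 h over 1 h, because Casq1 has q = 0.023 in the authors' deposited table. At 24 h over ethanol 2 list genes in place of 3 were called, and Orai1, with q = 0.0381 in the authors' table, was the one lost. Counting only GR regions within 1 kb of the start, 2 members had one in place of 7. Within 10 kb it was 5 members, and with regions at or above the median height it was 6. The share of all rows under these limits was not computed. No paired analysis was possible because each group has 1 value. Replicates could not be left out for the same reason. Depth is unknown, and the precision of each fold rests on the authors' statistic, with the widest SE at 24 h over ethanol for Sln (0.46).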
